A study of Homo sapiens with 6 samples.

Results

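The control transcriptome of MDA-MB-231 cells was described from 2 of the 6 libraries of the series, called vector 1 and vector 2. MDA-MB-231 is a human breast cancer line that was derived from a metastasis, and the labels give its cell type as epithelial. Both libraries were made from subconfluent cultures of cells that had been transduced with the empty lentiviral vector lentiCRISPRv2, which carries Cas9 but here no guide against a target gene. The vector was transduced separately for each library, and the selected cells were kept as pools without clone picking, so n = 2 transductions of 1 line. The other 4 libraries come from cells lacking MRCKα, MRCKβ or both kinases and were not used.

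MDA-MB-231 is a standard model of triple-negative breast cancer, the class that lacks the estrogen receptor, the progesterone receptor and amplified ERBB2. It carries an activating mutation in BRAF and a deletion that takes CDKN2A. Epithelial cells are held together by E-cadherin junctions and claudins, while mesenchymal cells use vimentin filaments, N-cadherin or other cadherins and the transcription factors of the SNAI, ZEB and TWIST families, and tumour cells can mix both programmes. MRCKα and MRCKβ, the kinases of the study, act downstream of CDC42 on the myosin light chain and so on actomyosin tension.

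The levels are given as FPKM, the deposited read number scaled to the length of the transcript and the depth of the library, which allows genes of different length to be compared. Expected counts summed to 10657857 in vector 1 and 10349898 in vector 2. A gene was called expressed at an FPKM of at least 1 in both libraries, not detected at no more than 3 expected counts in both, and low otherwise. A count of 0 allows up to 3 counts, or 2.81e-05% and 2.90e-05% of the totals, which for a transcript of the median length of 2925 bases is an FPKM of 0.0962 and 0.0991. Such limits describe the error of counting alone, because molecular identifiers were not used. Where 2 values of a gene follow each other, the first is that of vector 1 and the second that of vector 2.

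Of 17064 listed genes, 11359 (66.6%) were expressed, 3195 were low and 2510 were not detected in the control cells. Counts of a family below are out of the genes looked for, and a member that is not listed gives no value. The share of 66.6% is the one to set beside such counts. The median FPKM over all listed genes was 5.75 in vector 1 and 5.59 in vector 2, and the median of the mean FPKM over the expressed genes was 13.4, with quartiles of 5.78 and 30.6. An FPKM of at least 100 in both libraries was reached by 621 genes, and of at least 1000 by 32 genes. The 10 most abundant genes of each library held 5.16% of the summed FPKM in vector 1 and 5.63% in vector 2, and the 100 most abundant genes 23.6% ± 1.59 (SD, n = 2).

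The most abundant transcripts encoded the machinery of translation, the actin and tubulin cytoskeleton, glycolysis and iron storage. EEF1A1, the elongation factor that brings aminoacyl-tRNA to the ribosome, stood first, with an FPKM of 3499 and 3503. ACTB, which encodes beta-actin, followed with 3353 and 3256. GAPDH, a glycolytic enzyme, had an FPKM of 1965 and 2502. These 3 genes differed by less than 1.3-fold between the libraries, whereas FTL did not.

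Ribosomal protein genes took most places among the 100 most abundant genes. Those of cytosolic ribosomal proteins were taken by name, and names whose number carries a suffix other than A or X were left out. All 77 listed genes taken in this way were expressed, with mean FPKM from 113 to 1553 and a median of 652. To this group belonged 8 of the first 25 and 53 of the first 100 genes, beside 8 and 12 for the cytoskeleton. The 77 genes made up 12.1% of the summed FPKM in vector 1 and 13.6% in vector 2. The level was higher in vector 2 for 68 of the 77, by a median ratio of 1.20, against a median ratio of 0.996 over all expressed genes. RPLP0, a stalk protein of the large subunit, had the highest level, with an FPKM of 1527 and 1579. Many of these genes have processed pseudogenes, and how reads were shared among the copies is not given in the sources used here.

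Genes whose names begin with EEF or EIF and a digit, taken here for translation initiation and elongation factors, were expressed in 61 of 66 cases. They added 2.61% and 2.66% of the summed FPKM. Of 17 genes of glycolysis, 16 were expressed, and the pathway held 1.61% in vector 1 and 1.67% in vector 2. PKM, the pyruvate kinase, had an FPKM of 858 and 907, and LDHA, which turns pyruvate to lactate, had 869 and 807. ALDOC, an aldolase best known from brain, was low at 0.82 and 0.76, while ALDOA, the widespread aldolase, had 441 and 489. HK2 had a level of 27.8 and 18.8, below HK1 at 83.3 and 70.3, both being hexokinases.

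Outside these groups, the first 25 genes held S100A6, ANXA2 and HSPA8, of the S100, annexin and heat shock families, and 3 others. MT2A, a metallothionein that binds zinc and copper, had an FPKM of 1816 and 1870. HMGA1, an architectural chromatin protein of embryonic and tumour cells, had 1466 and 1475. NPM1, a nucleolar chaperone, had 1097 and 1305. MT2A and HMGA1 differed by less than 1.1-fold between the libraries.

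The 4 genes given as markers of the control cells were all expressed, though at unlike levels. VIM (gene ID 7431), vimentin, had an FPKM of 1545 and 2052 (mean 1799 ± 359, SD, n = 2) and was number 8 of all genes. CFL1 (gene ID 1072), cofilin, which severs actin filaments, had 890 and 1053 and was number 37. MYL9 (gene ID 10398), a regulatory light chain of myosin II that MRCK phosphorylates, had 119 and 87.7 and was number 659. VIM and CFL1 were higher in vector 2 and MYL9 in vector 1, in each case by less than 1.4-fold.

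FTL (gene ID 2512), the light chain of the iron store ferritin, was number 3 by its mean FPKM, but this place rested on vector 2. Its FPKM was 1241 in vector 1 and 3596 in vector 2, a 2.90-fold difference. FTH1, the ferritin heavy chain, moved with it, at 591 and 1509. The ratio of FTL to FTH1 was 2.10 in vector 1 and 2.38 in vector 2. Both chains were therefore among the abundant transcripts in each library, at levels that the pair of libraries did not fix to better than 2.5-fold.

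Other genes of iron and redox handling lay apart in the same direction. NQO1, a quinone reductase, had an FPKM of 75.7 and 268, and GCLM, a subunit of the enzyme that starts glutathione synthesis, had 15.5 and 39.6. TXN, thioredoxin, had 332 and 586. GPX4, which reduces lipid peroxides, had 309 and 278, and so was slightly lower in vector 2. Of the 15 expressed genes of the 16 in this list, 4 were at least 2-fold apart, and all 4 were higher in vector 2. Across all expressed genes 311 (2.74%) were at least 2-fold apart. The only gene of the list that was not expressed was SLC40A1, the iron exporter ferroportin, with an FPKM of 0.61 and 0.8, and a cause for the differences between the libraries was not tested.

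The sequences around the starts of some of the most abundant genes are shown because 2 start-site features were common among them. They are a selection from 20 stretches, so their number does not show how common the features were. Each line gives 40 bases before and the first 12 bases after the RefSeq start (GRCh38.p14), read on the strand of the gene. Capitals mark TATAA where it begins between 40 and 20 bases before the start, and the first bases of the transcript where a C is followed by at least 4 bases that are C or T. The second feature is known as the start of a 5′ terminal oligopyrimidine tract, which is typical of ribosomal protein and elongation factor mRNAs.
EEF1A1 (chr6:73521021-73521072, minus strand): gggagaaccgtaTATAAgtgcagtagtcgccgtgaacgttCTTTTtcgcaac
RPLP0 (chr12:120201100-120201151, minus strand): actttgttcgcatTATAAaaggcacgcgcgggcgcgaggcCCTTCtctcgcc
RPS24 (chr10:78033823-78033874, plus strand): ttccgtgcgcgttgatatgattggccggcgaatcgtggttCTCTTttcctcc
RPL41 (chr12:56116593-56116644, plus strand): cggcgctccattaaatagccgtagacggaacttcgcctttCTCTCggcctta
S100A6 (chr1:153535980-153536031, minus strand): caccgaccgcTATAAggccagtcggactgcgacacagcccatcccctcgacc
TMSB10 (chr2:84905616-84905667, plus strand): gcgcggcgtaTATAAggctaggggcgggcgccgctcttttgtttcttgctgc
MT2A (chr16:56608544-56608595, plus strand): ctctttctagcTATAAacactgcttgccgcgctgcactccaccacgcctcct
ANXA2 (chr15:60397975-60398026, minus strand): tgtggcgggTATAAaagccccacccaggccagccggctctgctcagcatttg
HSPA8 (chr11:123062125-123062176, minus strand): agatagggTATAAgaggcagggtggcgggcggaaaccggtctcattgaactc

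EEF1A1 and RPLP0 held both features, RPS24 and RPL41 the tract without TATAA, and S100A6, TMSB10, MT2A, ANXA2 and HSPA8 TATAA without the tract. The stretch of the marker MYL9 is not shown. The markers VIM, CFL1 and FTL and the glycolytic gene GAPDH held neither by these letters, as the same stretch shows.
VIM (chr10:17228201-17228252, plus strand): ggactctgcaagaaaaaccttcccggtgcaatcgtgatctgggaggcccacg
CFL1 (chr11:65858169-65858220, minus strand): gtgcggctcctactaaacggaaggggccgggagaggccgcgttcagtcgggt
FTL (chr19:48965269-48965320, plus strand): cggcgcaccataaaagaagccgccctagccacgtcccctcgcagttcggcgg
GAPDH (chr12:6535224-6535275, plus strand): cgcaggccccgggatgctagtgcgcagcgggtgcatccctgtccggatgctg

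The tract was found in 46 of 62 expressed ribosomal protein genes with a window in the reference table (74.2%), in 39 of 80 of the 100 most abundant genes (48.8%) and in 7.58% of 9391 expressed genes. TATAA at this distance was found in 17 of 80 of the most abundant genes (21.2%), in 3.72% of the expressed, 7.28% of the low and 11.05% of the not detected genes. Without the ribosomal protein genes, 13 of 39 of the most abundant genes held TATAA there and 8 of 39 (20.5%) held the tract. Of all 35116 windows of the table, 3.91% held TATAA there and 4.07% the tract. With the longer motif TATAAA anywhere in the 250 bases before the start, the shares were 6.25% of the most abundant, 4.78% of the expressed and 11.05% of the not detected genes. The motifs were searched on the strand of the gene, a gene with several windows was counted once if any of them matched, and a match is no more than a match of letters. Both motifs were chosen after promoter windows had been seen, so the shares among the most abundant genes are a description and no test.

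CpG content differed between the classes of level as well. The median ratio of observed to expected CpG in the 250 bases before the start, taken from the window with the highest ratio of each gene, was 0.864 in the expressed, 0.644 in the low and 0.44 in the not detected genes. It was 0.922 in the 100 most abundant genes. The quartiles were 0.735 and 0.971 for expressed and 0.211 and 0.764 for not detected genes, so that the classes overlapped.

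The label of an epithelial cell was borne out by only a part of its markers. Genes of simple epithelial keratins were abundant, while those of E-cadherin, of the splicing regulator ESRP1 and of the luminal secreted products were low, not detected or not in the table. KRT8 had an FPKM of 220 and 187, and its partner KRT18 had 177 and 184. KRT19, another simple keratin, had 60.4 and 28.9, and KRT7 had 52.4 and 34.5. CDH1, which encodes E-cadherin, had 0.25 and 0.64, from 13.5 and 33.1 expected counts. EPCAM, an adhesion protein of most carcinomas, had 2.62 and 2.47. The vimentin transcript stood 7.02-fold above KRT8 in vector 1 and 10.97-fold in vector 2.

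**Figure D1:**
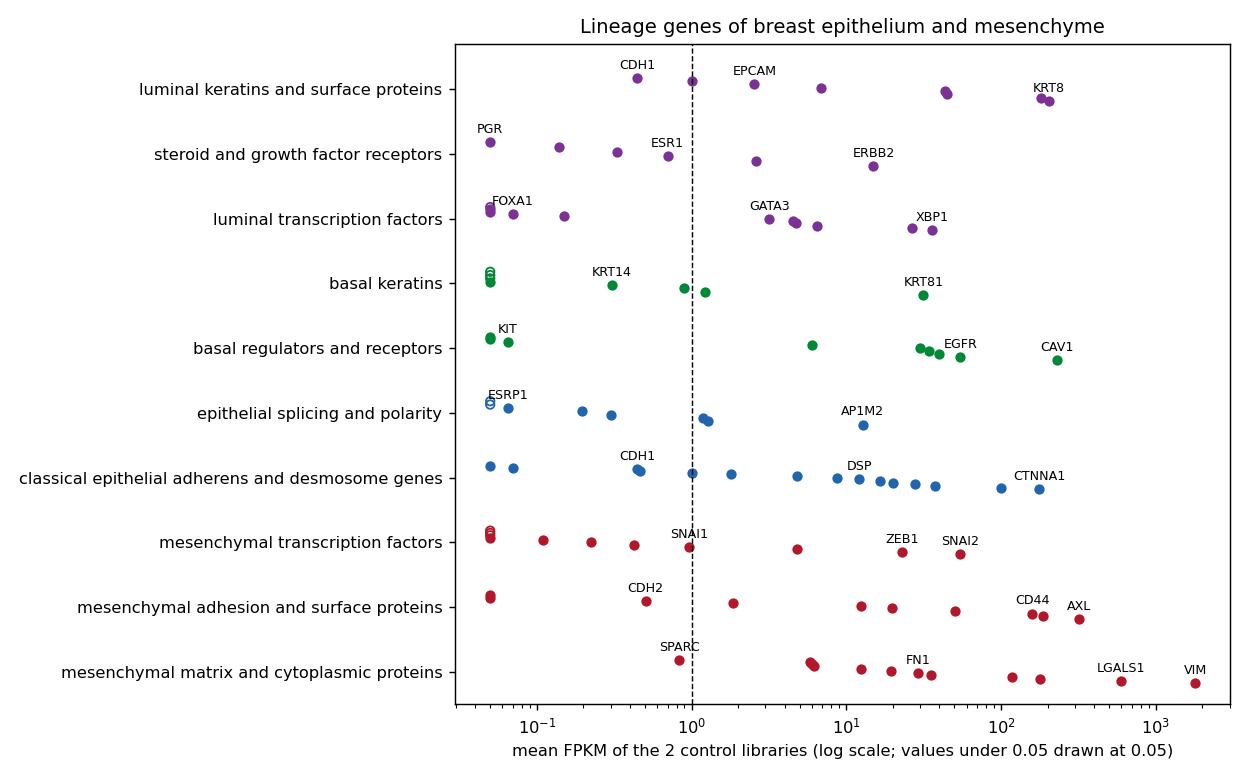
Mean FPKM over both control libraries on a log axis for genes of luminal breast (purple), basal and myoepithelial breast (green), epithelial junctions (blue) and mesenchyme (red), 1 point a gene and values under 0.05 drawn at 0.05. Open points are genes that are not in the table, the dashed line marks an FPKM of 1, and CDH1 and ESR1 lie left of it while KRT8, AXL and VIM lie far to the right.

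The receptors that define breast cancer classes were low or moderate. ESR1, the estrogen receptor, had an FPKM of 0.53 and 0.87, and PGR, the progesterone receptor, had 0.03 and 0.03. ERBB2 was expressed at 16.2 and 13.8 and ERBB3 at 2.85 and 2.37. Transcripts of EGFR, at 56.2 and 52.8, were 3.48-fold and 3.82-fold more abundant than those of ERBB2, and ERBB4 had 0 counts in both libraries.

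Of the 35 luminal breast genes 14 were expressed, out of 28 that are listed, beside 66.6% of all listed genes. The luminal transcription factors were divided. XBP1, a factor of the secretory pathway, had an FPKM of 34.8 and 36.9, TFAP2C had 19.7 and 33.1, and GATA3, a master factor of luminal cells, had 2.59 and 3.79. FOXA1, which opens chromatin for the estrogen receptor, had 0.03 and 0.11. ELF5 and TBX3 had 0 counts in both libraries, and GRHL2 is not in the table. None of the 10 luminal secreted products was expressed, and 6 of them are not in the table.

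Basal keratins were low. KRT14 had an FPKM of 0.34 and 0.27, KRT17 had 0.24 and 1.55, and KRT5, KRT6A and KRT6B are not in the table. KRT81, a hair-type keratin, was the one member of this group that was expressed, with 47.1 in vector 1 and 15.9 in vector 2. TP63, which maintains basal cells, had 0 and 2 counts, and SOX10 had 0 counts in both. Several other genes associated with basal cells were expressed at higher levels: CAV1, the coat protein of caveolae, had an FPKM of 281 and 178, SOX9 had 28.0 and 31.4, and LAMB3, a laminin chain, had 165 and 193. LAMA3, another laminin chain, was far lower at 2.65 and 2.2. Of 29 basal and myoepithelial genes 26 are listed and 15 were expressed, or 57.7% of those listed, beside 66.6% of all listed genes.

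Of 52 epithelial junction genes 48 are listed and 24 were expressed, a smaller share than the 66.6% of all listed genes. The highest were catenins, which link cadherins to actin, with CTNNA1 at an FPKM of 193 and 158 and CTNNB1 at 92.5 and 109. DSP, the desmosomal plaque protein, had 14.9 and 9.27, and JUP, plakoglobin, had 13.7 and 3.8. PKP1 had 0 counts in both libraries. Of 29 tight junction genes 27 are listed and 12 were expressed, or 44.4% of those listed. The highest claudin was CLDN12 at 16.5 and 15.8, followed by CLDN4 at 11.4 and 6.57 and CLDN7 at 5.66 and 2.4. CLDN3 had 0 and 0.3, and CLDN6 and CLDN14 had 0 counts. ESRP1, an epithelial splicing regulator, had an FPKM of 0.1 and 0.03, and its relative ESRP2 had 1.18 and 1.38.

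Mesenchymal genes were expressed in 21 of 33 cases, or 70.0% of those listed, which is near the 66.6% of all listed genes. SNAI2, known as Slug, had an FPKM of 47.4 and 61.9 and led the transcription factors of this group, followed by ZEB1 at 21.6 and 24.03 and ZEB2 at 5 and 4.57. SNAI1 was at the limit with 1.15 and 0.79, and TWIST1 and TWIST2 are not in the table. Among cadherins of mesenchyme, CDH2, N-cadherin, was low at 0.36 and 0.65, whereas CDH11, known from osteoblasts and synovium, had 57.8 and 43.3. AXL, a receptor tyrosine kinase of mesenchymal tumours, had 271 and 367. NT5E, the ecto-nucleotidase CD73, had 167 and 208. LGALS1, galectin-1, had 604 and 594. FN1, fibronectin, had 38.1 and 20.1, and SPARC was low at 1.22 and 0.45. Levels of the cell surface pair CD44 and CD24, whose high and low setting marks stem-like breast cells, were 116 and 203 for CD44 and 4.28 and 9.51 for CD24, a ratio of 27.1 in vector 1 and 21.3 in vector 2. Of the 8 genes listed as breast stem cell markers 4 were expressed, which were CD44, CD24, ITGA6 at 51.7 and 61.6 and PROCR at 26.9 and 26.6. ALDH1A3 and LGR5 were low, and PROM1 and ALDH1A1 were not detected.

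Markers of cell types that a culture of 1 line should not hold were mostly low. Of 72 genes for 9 other lineages 16 were expressed, or 27.1% of the 59 listed, against 66.6% of all listed genes. Defining markers at 0 or not detected in both libraries were ALB and APOA1 of hepatocytes, CDH5 and VWF of endothelium, CD3E and CD4 of lymphocytes, RBFOX3 of neurons, and FAP and LUM of fibroblasts. The expressed ones with the highest levels were CD68, a lysosomal protein used as a macrophage marker, at an FPKM of 68.6 and 98.5, PPARG of adipocytes at 53.6 and 47.8, SMTN of smooth muscle at 34.0 and 49.7, TUBB3 of neurons at 34.7 and 43.2, and MITF of melanocytes at 22.2 and 21.6. Other markers of the same cell types were expressed at lower levels, such as LYZ of myeloid cells at 7.58 and 8.87, CD8A of T cells at 1.13 and 1.33, and TIE1 at 1.55 and 1.81 and KDR at 1.84 and 1.26 of endothelium. PTPRC, the common leukocyte antigen, was low at 0.67 and 0.28. In bulk RNA, fewer cells of a type and less RNA per cell cannot be told apart.

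A few low genes of luminal and stromal cells were present in vector 1 and nearly missing in vector 2. COL3A1, a fibrillar collagen of fibroblasts, had 48 counts in vector 1 and 1 in vector 2, COL1A2 had 49 and 6, AGR2, a luminal secretory gene, had 48 and 9, and TFF1, a target of the estrogen receptor, had 16 and 0. IGF2 had 156 and 8 counts. The 9 stromal fibroblast genes summed to an FPKM of 11.3 and 3.79, of which PDGFRB alone gave 5.9 and 1.35, and the 10 luminal products to 7.61 and 0.71. Other genes of the same lists went both ways. MUC1 of the luminal list had 33 counts in vector 1 and 6 in vector 2, TFF3 had 9 and 0, and DCN of the stromal list had 6 and 0. KRT19 (FPKM of 60.4 and 28.9), KRT7 (52.4 and 34.5) and SPDEF (8.28 and 4.67) were lower in vector 2 without being nearly missing. Of the luminal list, ESR1 (FPKM of 0.53 and 0.87), CDH1 (0.25 and 0.64), GATA3 (2.59 and 3.79) and CD24 (4.28 and 9.51) were higher in vector 2. The collagen COL6A1 was also higher there, at 28.9 and 41.6, and the stromal gene COL1A1 kept 183 and 127 counts. The part of other cells in the differences between the libraries was not tested.

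The cytoskeleton list held 57 expressed genes of 70, or 82.6% of the 69 listed, beside 66.6% of all listed genes. The median FPKM was 83.8 over its members, and 34 members had a mean of at least 100. Among actins, ACTB and ACTG1, the non-muscle isoforms, were expressed at a ratio of 2.46 in vector 1 and 2.16 in vector 2, while ACTA2 of smooth muscle had 1.86 and 1.24. The actin monomer binders were abundant. TMSB10, thymosin beta-10, had an FPKM of 1757 and 1973. TMSB4X, thymosin beta-4, had 2021 and 1081, so that which thymosin was higher differed between the libraries. PFN1, profilin, had 1119 and 1199. GSN, gelsolin, was far lower at 10.1 and 6.52.

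Myosin II was represented by MYH9, the heavy chain of non-muscle myosin IIA, at an FPKM of 142 and 153. MYH10 of myosin IIB had 25.04 and 20.6, and MYH14 of myosin IIC had 0 counts in both. Among the light chains, MYL12B had 657 and 507, MYL6 had 442 and 459 and MYL12A had 382 and 343. MYL9 lay below these, and the ratio of MYL12B to MYL9 was 5.51 and 5.78. Reads of 50 bases may not separate the closely related MYL12A and MYL12B. Tubulin was led by TUBA1B at 1481 and 1754 and TUBB at 1094 and 1242. No expressed gene of the cytoskeleton list was 2-fold apart between the libraries.

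Both kinases of the study were expressed in the control cells. CDC42BPA, which encodes MRCKα, had an FPKM of 36.4 and 23.3. CDC42BPB, which encodes MRCKβ, had 30.3 and 29.1. The ratio of the first to the second was 1.20 and 0.801, so that neither was higher in both libraries. CDC42BPG, the third MRCK gene, was low at 0.37 and 0.21. The related kinases ROCK1 and ROCK2 had 28.9 and 20.2 and 27.5 and 27.9, which lay in the same range. PAK2 was the highest kinase of the list at 43.1 and 49.8, and PAK5 is not in the table. MYLK, the calcium-dependent myosin light chain kinase, had 9.24 and 4.49. Among GTPases, RHOA had 319 and 368, RAC1 had 219 and 214 and CDC42 had 139 and 124. RAC2, best known from blood cells, had 128 and 132, and RHOB was low among them at 7.31 and 6.88. In all 23 of 26 pathway genes were expressed, or 92.0% of the 25 listed, beside 66.6% of all listed genes.

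Transcripts from the deleted region at 9p21 were at or near 0. CDKN2A, which encodes the cell cycle inhibitors p16 and ARF, had 0 counts in both libraries, its neighbour MTAP had an FPKM of 0.05 and 0.06, and CDKN2B is not in the table. NRAS had 36.2 and 38.4, HRAS had 42.9 and 50.7, and BRAF had 4.94 and 3.74. CCND1, cyclin D1, had 230 and 211 and MYC had 83.7 and 61.2. All 13 genes of the oncogene and ERK group were expressed. So were 12 of 15 tumour suppressor and repair genes, or 85.7% of the 14 listed, beside 66.6% of all listed genes.

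Transcription factors were expressed in 136 of 251 cases, which is 62.4% of the 218 listed and near the 66.6% of all listed genes, with a median FPKM of 2.92 over the members. All members of the TEAD, YAP and TAZ group and of the NF-κB group were expressed. YAP1, a coactivator that responds to tension, had an FPKM of 54.7 and 48.1 and was 2.61-fold above its paralogue WWTR1, or TAZ, in both libraries. TEAD1, their DNA-binding partner, had 53.5 and 42.1. RELA had 50.9 and 55.4. SRF, which drives actin genes, had 47.5 and 40.3, and its coactivators MRTFA and MRTFB had 6.07 and 5.93 and 5.05 and 4.3.

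**Figure D2:**
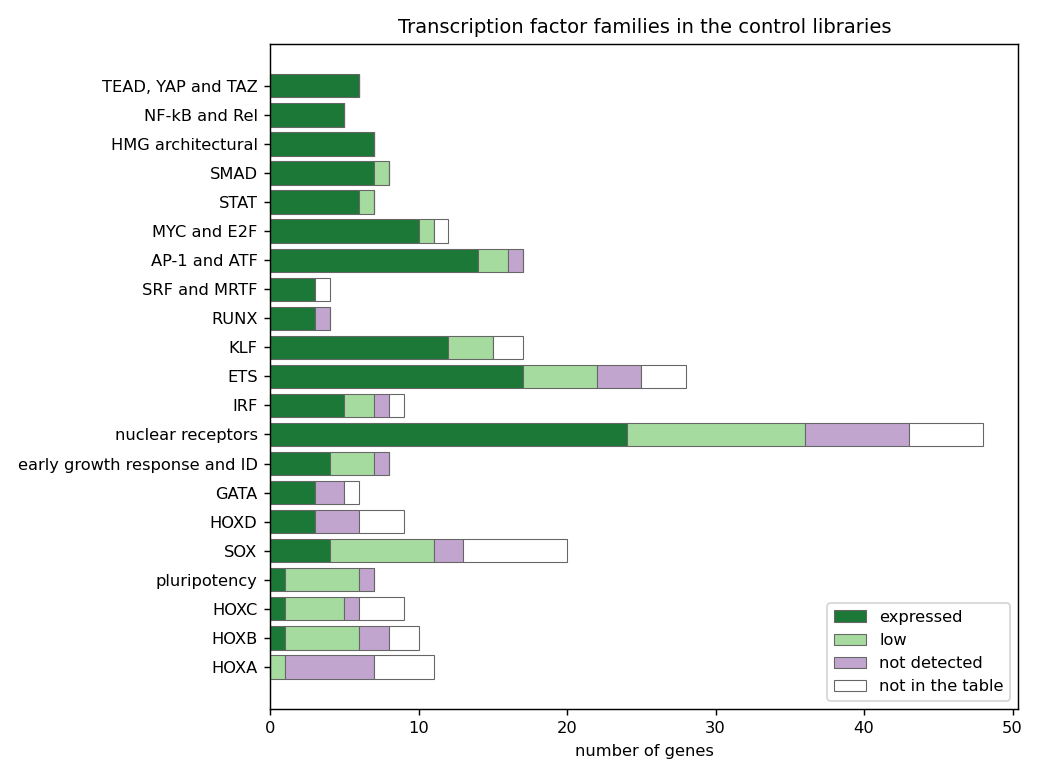
Number of genes in each transcription factor family that were expressed, low, not detected or not in the table in the control libraries, as stacked bars ordered by the share expressed. All 6 genes of TEAD, YAP and TAZ are expressed, and none of 11 HOXA genes.

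AP-1 was uneven. FOSL1, an AP-1 subunit of invasive cells, had an FPKM of 222 and 320 and stood 154-fold and 239-fold above FOS, at 1.44 and 1.34. JUND had 79.9 and 40.6, JUN had 44.9 and 62.2, and FOSB was low. ATF4, the factor of amino acid stress, had 177 and 155. Of 17 genes 14 were expressed, or 82.4%, beside 66.6% of all listed genes.

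The ETS family held 17 expressed genes of 28, or 68% of the 25 listed, which is near the 66.6% of all listed genes. ETS1 had an FPKM of 94.3 and 64.5, ELK3 had 70.5 and 46.2 and ETV4 had 37.7 and 39.4. SPI1 of myeloid cells and ERG of endothelium were not detected. RUNX1 had 22.6 and 23.9, and RUNX3 had 0 counts in both. Of 48 nuclear receptors 24 were expressed, or 55.8% of the 43 listed. They were led by NR2F2, or COUP-TFII, at 88.6 and 82.8 and by PPARG. NR3C1, the glucocorticoid receptor, had 33.8 and 22.7. HNF4A of liver and NR5A1 of steroid-making tissue had 0 counts. Among SOX genes, 4 of 20 were expressed, or 30.8% of the 13 listed, and SOX9 was the highest.

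HOX genes, which record position along the body axis, were mostly low, not detected or not in the table. None of 11 HOXA genes was expressed, 6 of the 7 listed were at 0 in both libraries, and HOXA13 had 3 and 14 counts. HOXB9 was the highest HOX gene at an FPKM of 13.5 and 9.59. It was the one expressed gene of 10 in its cluster, or 12.5% of the 8 listed. HOXC6 had 5 and 2.72 and was the one expressed gene of 9, or 16.7% of the 6 listed. The expressed share of the 6 listed HOXD genes was 50%, and that of all listed genes was 66.6%. In the HOXD cluster HOXD4 had 4.3 and 5.19, HOXD1 had 2.55 and 1.75 and HOXD3 had 1.07 and 1.83, while HOXD10, HOXD11 and HOXD13 had 0 counts. Of the pluripotency factors POU5F1 was expressed at 2.44 and 2.58, a value that related copies of the gene may share, and SOX2 had 0 and 0.19.

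Receptors and other surface proteins were expressed in 126 of 231 cases, or 58.3% of the 216 listed, beside 66.6% of all listed genes. The highest were BSG, or basigin, at an FPKM of 495 and 567, and B2M, the light chain of MHC class I, at 447 and 520. Integrins were dominated by ITGB1 at 339 and 445 and ITGA3 at 254 and 277, which pair to a laminin receptor. ITGA3 was 4.92-fold above ITGA6 in vector 1 and 4.50-fold in vector 2. ITGB6 was not detected, and ITGAM of leukocytes had 0 counts.

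**Figure D3:**
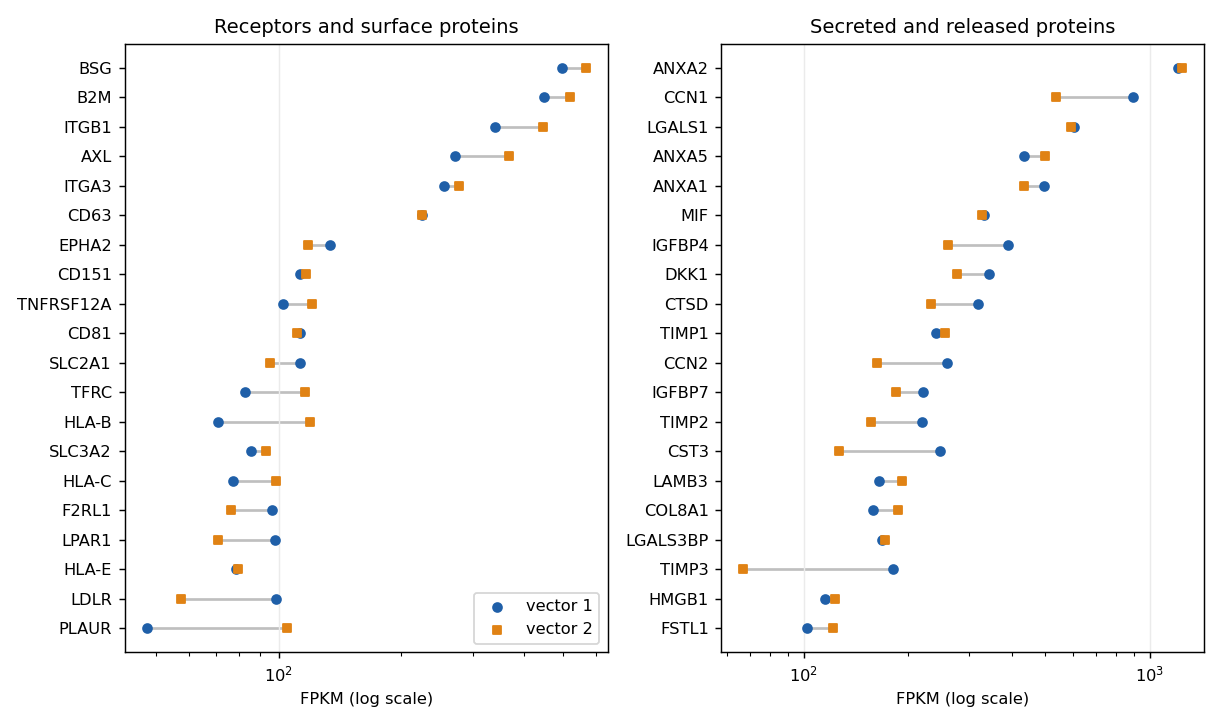
FPKM on a log axis of 20 receptors or surface proteins and 20 secreted or released proteins among those with the highest means, vector 1 as circles and vector 2 as squares. BSG leads the first panel at 495 and 567, and TIMP3, at 181 and 67.0, is the widest pair of the second.

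Receptor tyrosine kinases were led by AXL, which was 4.82-fold above EGFR in vector 1 and 6.96-fold in vector 2. EPHA2, an ephrin receptor, had an FPKM of 134 and 118, FGFR1 had 34.6 and 45.0 and MET, the receptor of hepatocyte growth factor, had 37.3 and 31.1. IGF1R had 10.02 and 4.79. KIT and PDGFRA were near 0, and ALK and RET are not in the table. In the list of 36 kinases outside the ERBB and Eph families 15 were expressed, or 44.1% of the 34 listed, beside 66.6% of all listed genes.

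Among receptors for lysophospholipids and for proteases, which act through G proteins, 7 of 15 were expressed, or 46.7%, beside 66.6% of all listed genes. LPAR1, for lysophosphatidic acid, had an FPKM of 97.8 and 70.9 and F2RL1, a protease-activated receptor, had 96.0 and 76.2, whereas LPAR2, LPAR3, LPAR4, LPAR5 and LPAR6 were low or not detected. F2R, the thrombin receptor, had 36.0 and 22.1. Chemokine receptors were mostly low or not detected, with CXCR4 at 4.86 and 5.23 and CCR6 at 1.57 and 1.32 as the 2 expressed genes of 22. Of these 22 genes 16 are listed, and 12.5% of those listed were expressed.

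In the TNF receptor superfamily 16 of 29 genes were expressed, or 59.3% of the 27 listed, beside 66.6% of all listed genes. TNFRSF12A, the receptor of TWEAK, was the highest at an FPKM of 103 and 121. Cytokine receptors were expressed in 18 of 25 cases (72%), led by IL6ST, the shared gp130 chain, at 51.6 and 57.7. IL13RA2, a decoy receptor, had 6 counts in vector 1 and 143 in vector 2. NOTCH2 had an FPKM of 37.1 and 29.0 and SMO had 0 counts in both. CD274, or PD-L1, had 7.46 and 10.8, and the class II gene HLA-DRA had 0 and 0.6.

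Secreted proteins were expressed in 131 of 240 cases, or 59.3% of the 221 listed, beside the same 66.6%. CCN1, listed under its older name CYR61, is a matricellular protein and a known target of YAP, and had an FPKM of 898 and 537. Its relative CCN2, or CTGF, had 260 and 163. DKK1, an inhibitor of WNT signalling, had 343 and 278 and stood 46.8-fold and 32.4-fold above WNT5B, the highest WNT ligand, at 7.32 and 8.59. WNT3A had 0 counts in both. Of 24 WNT ligands and antagonists 20 are listed and 4 were expressed, or 20% of those listed.

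Matrix genes were expressed in 12 of 17 collagens (70.6%) and 9 of 15 laminins and basement membrane genes (60%), beside 66.6% of all listed genes. COL8A1 was the highest collagen at an FPKM of 159 and 188, followed by COL13A1 at 84.7 and 111, and COL1A1, the main collagen of fibroblasts, had 3.26 and 2.27. COL7A1 had 1.5 and 14.1. MMP14, a membrane-bound metalloprotease, had 77.8 and 83.0 and MMP1, interstitial collagenase, had 11.7 and 14.1, while MMP2 had 17 and 0 counts and MMP9 0 and 1. Of 18 metalloprotease genes 16 are listed and 5 were expressed, or 31.25% of those listed. The inhibitor TIMP1 had 242 and 256 and was 3.11-fold and 3.08-fold above MMP14. PLAU, urokinase, had 73.9 and 40.8, and its receptor PLAUR had 47.3 and 105. CTSD, cathepsin D, led the serine, cysteine and other proteases at 319 and 234.

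Among the interleukins and colony stimulating factors, IL11, a member of the IL-6 family, was the highest at an FPKM of 80.7 and 139. VEGFA had 56.9 and 72.9 and VEGFC had 69.6 and 60.1. BMP4 had 94.8 and 50.5, TGFB1 had 52.9 and 50.8 and HBEGF, an EGFR ligand, had 42.7 and 49.0. IGFBP4, which binds IGF, had 389 and 261, while IGFBP2 had 0 counts. CXCL8 had 7.31 and 17.3 and IL6 had 2.64 and 6.74. CXCL12 and CXCL10 had 0 counts, and HGF and IL33 are not in the table.

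S100 and annexin genes of calcium-binding proteins were uneven. S100A6 had an FPKM of 2253 and 1998 and S100A11 had 689 and 710, while S100A9, S100A1 and S100B had 0 counts and S100A7 and S100A8 are not in the table. S100A4, which binds myosin IIA, had 273 and 83.4. Of 20 S100 genes 16 are listed and 8 were expressed, or 50% of those listed, beside 66.6% of all listed genes. ANXA2 had 1207 and 1245, and 10 of 12 annexins were expressed, or 90.9% of the 11 listed.

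Over the 1080 genes of all lists, 599 were expressed, or 61.9% of those listed, beside 66.6% of all listed genes. Of these 599, 43 (7.18%) were at least 2-fold apart between the libraries, beside 2.74% of all expressed genes. The lists were chosen with earlier results of these data known, so the higher share cannot be read as a trait of such genes. The secreted proteins held 17 of the 43. CST1, a salivary cystatin, had an FPKM of 213 and 7.15, SERPINB2, a urokinase inhibitor, had 3.14 and 30.6, and FST, which binds activin, had 56.1 and 18.1. For such genes the baseline of the line was not fixed by the 2 libraries, and the range of both values is the description they allow. CST1 belongs to a family of similar cystatin genes among which short reads may be shared.

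**Figure D4:**
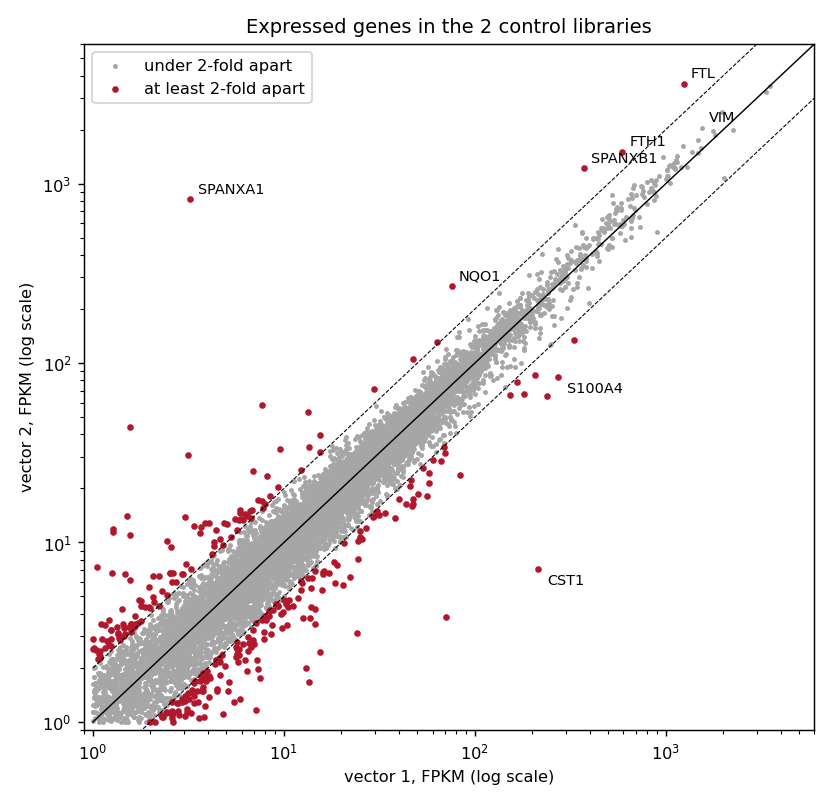
FPKM of the 11359 expressed genes in vector 1 (horizontal) and vector 2 (vertical) on log axes, with genes at least 2-fold apart in red, the diagonal as a full line and the 2-fold limits dashed. FTL and FTH1 lie above the upper limit and CST1 and S100A4 below the lower one, while VIM lies between the limits.

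Agreement of the libraries depended on the level. Among expressed genes with a mean FPKM of 1 to 5, 6.43% were at least 2-fold apart, among those from 5 to 20 it was 2.28%, from 20 to 100 it was 0.955%, and above 100 it was 1.89%. Among the 25 most abundant genes FTL was the one that was 2-fold apart, and 21 of the 25 were higher in vector 2. Of the 100 most abundant genes by mean, 95 were among the first 100 of vector 1 and 95 among those of vector 2. Across the expressed genes, which are not independent replicates, Pearson's r of the log2 FPKM was 0.973.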

How the data were processed

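RNA of vector control MDA-MB-231 cells was sequenced by BGI as single-end reads on a BGISEQ-500. The labels' processing notes name HISAT, Bowtie2, RSEM and GRCh38.p11, without tool versions. The deposited expected counts are the authors' estimated reads per gene, not normalized. The authors' FPKM values divide them by transcript length and library total and are rounded, and the deposited table joins them by Entrez gene ID. It lists no gene with non-coding transcripts alone, so none of 10 long non-coding RNAs looked for is in it, and a gene that is not in it gives no value. The other 4 libraries were not used here.

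Levels were averaged over both libraries as deposited, with no pseudocount. TPM was computed by scaling the FPKM to a common sum. Of the listed IDs, 16792 matched RefSeq names. Python 3.11.15 with pandas 2.3.3 was used. The call of expressed genes was tried on simulated counts that held the error of counting alone. They had no variation between libraries, so this cannot show how the call fares with genes that lie apart. No test between groups was made. Up to 6 of the highest members of each of 88 gene groups, genes that were low or not in the table, MRCK pathway genes, genes 2-fold apart and all genes of short groups could be named. Members, lists and motifs were chosen with earlier results of these data known, and the motif TATAA and the pyrimidine tract after promoter windows had been seen. FOS, HK1, HK2, COL1A1 and the ratios between 2 genes were also chosen after their values were seen. Protein sequences, which were planned, are not shown, and some genes of the lists are not reported here.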

Additional observations from a re-analysis of the deposited data

How the results depend on the processing

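Counts of expressed genes depended little on the limit. They ranged from 10395 with an FPKM of at least 2 to 12582 with at least 10 expected counts, and were 11626 and 11704 from vector 2 or vector 1 alone. With 0 counts in both libraries as the rule, 1124 genes were not detected, in place of 2510. Ranked by expected counts, which favour long genes, the 100 highest held 14.8% of all counts and 13 of the 25 most abundant genes by FPKM remained. From vector 1 alone 24 and from vector 2 alone 22 remained. At an FPKM of at least 2, 7 of the 16 expressed genes of other lineages were counted, and 186 genes were 2-fold apart in place of 311, an alternative chosen after seeing the data, for which TPM gave 346. The other lists stayed within 1.5 times under every alternative, and of 498 counts in 83 smaller groups 46, in 21 groups, moved further. No paired analysis was possible because no groups were compared. With 2 libraries, low counts and genes that lie apart are the limit of this description.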

Other observations

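Some genes of the cancer-testis class, which are silent in most adult tissues outside the testis, had high levels in the control libraries. These genes were in no list and were chosen after their values were seen. SPANXB1 had an FPKM of 371 and 1215. SPANXA1 had 3.24 and 816, and SPANXC had 7.67 and 58.3. These 3 SPANX genes were more than 3-fold higher in vector 2. XAGE1B and XAGE1E were equal to each other in each library, at 210 and 196. MAGEA12 had 14.2 and 20.5. The SPANX genes and the XAGE1 genes are near-identical copies, so that the level of a single copy is uncertain, and how reads were split among the copies was not tested.

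SCD, the desaturase of fatty acid synthesis, had an FPKM of 239 and 65.9, and AKR1B1, aldose reductase, had 330 and 135. These genes, also chosen after their values were seen, are named because they were among the 2-fold differences at the highest mean levels.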
